A study of Arabidopsis thaliana with 12 samples.

Results

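The light response of Arabidopsis thaliana seedlings without cryptochrome 1 was measured by comparing 3 libraries of cry1 seedlings given blue light with 3 libraries of cry1 seedlings kept in the dark. Of the 32833 genes in the deposited tables, the 19310 with at least 1 TPM (a transcript level scaled to the library's total) in at least 3 of these 6 libraries were tested. The study as a whole holds 12 libraries of messenger RNA from whole seedlings, 3 for each of wild type (WT) dark, WT blue, cry1 dark and cry1 blue. Seedlings of every group were 10 days old and had been grown in darkness, and the blue groups then received continuous light of that colour for 1 h, at 40 µmol m-2 s-1. The genotype is labelled cry1, a mutant of the CRY1 gene, and its allele is not given in the sources used here. Whether replicate libraries stem from independent sowings is not told by the labels. The p-values therefore weigh differences only against the scatter of these libraries, some of which may be technical.

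In darkness, the COP1 and SPA proteins form a ubiquitin ligase that removes transcription factors such as HY5, while the phytochrome-interacting factors (PIFs) keep growth genes active. Photoreceptors that absorb light inhibit both, and the seedling turns from elongation to greening. Cryptochrome 1 is the main cryptochrome under strong blue light, and cryptochrome 2, the phototropins and the phytochromes also absorb blue light, so a cry1 mutant keeps other receptors that can respond to it.

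The 6 cry1 libraries summed to between 981025 and 988002 TPM and held 18502 to 19373 genes at 1 TPM or more. Their read depth is not contained in TPM values, so no counting interval is given, and a value of 0 is described as listed at 0. Across tested genes, Pearson's r between libraries was 0.954 to 0.979 within a group and 0.867 to 0.928 between the dark and blue groups. The third dark library stood apart in stress genes: its mean log2(TPM + 1) over 12 low oxygen genes was 7.23, against 6.19 and 5.50 in the other dark libraries. RNA of 12 seed storage and oil body genes summed to 40.5 TPM in the first dark library and 78.2 TPM in the second blue library, against 1.5 to 2.8 TPM in the other four. Of 9 flower and pollen genes, AGL66 and VGD1 were listed at 0 in all 6 libraries and SEP3 alone passed the filter. The summed level of 15 root genes was 107.1 to 141.6 TPM in the dark and 209.4 to 262.7 TPM in blue light, and the part of this shift in the other differences was not tested.

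CRY1 itself was below the filter in cry1, at 0.92, 1.71 and 0.31 TPM in the dark and 0, 0.62 and 1.12 TPM in blue light, against 56.3 to 59.9 TPM in WT dark and 23.8 to 50.0 TPM in WT blue libraries. Every cry1 library was far below every WT library. Among 10 other photoreceptor genes tested, 2 rose, PHYA fell and 7 were not called. In this and every comparison below, a gene was called when its Benjamini-Hochberg adjusted p over all tested genes was under 0.05 by limma, and 9.93% of all tested genes were called higher and 6.27% lower in cry1 blue light. PHOT2, a phototropin that drives chloroplast movement, was 8.28, 3.47 and 4.85 TPM in the dark libraries and 20, 28.8 and 30.5 TPM in the blue ones, so that every blue value lay above every dark value. Its log2 fold change, on the log2(TPM + 1) scale as all fold changes here and given ± its standard error, was 2.12 ± 0.34 (adjusted p = 0.00058). PHYA, the phytochrome that accumulates in darkness, was 306, 235 and 293 TPM in the dark libraries and 69.4, 126 and 114 TPM in the blue ones, a log2 fold change of -1.45 ± 0.26 (adjusted p = 0.00133). CRY2, the second cryptochrome, was 64.7, 47.3 and 67 TPM in the dark libraries and 43.4, 54.7 and 57.2 TPM in the blue ones, values that overlapped and gave -0.19 ± 0.18 (adjusted p = 0.535). In bulk RNA of whole seedlings, fewer cells of a type and less RNA per cell cannot be told apart, here and in all results that follow. Leaving out any cry1 library other than the first dark one left 1 photoreceptor gene called higher, and without the second dark or the second blue library 2 were called lower. With TMM-type scaling or quantile normalization 3 were called lower.

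After 1 h of blue light 1918 genes were called higher and 1210 lower in cry1. Of the genes called higher, 1177 rose at least 2-fold, 326 at least 4-fold and 32 at least 16-fold on the log2(TPM + 1) scale, and of those called lower 649, 163 and 18 did so. Over all tested genes, 3153 had every blue value above every dark value and 2439 had every blue value below. Such absence of overlap held for 99.1% of genes called higher and 97.2% of those called lower, so it is the rule for a called gene. In WT, where 9.78% of the same genes were called higher and 26.6% lower, 971 of the 1918 genes (50.6%) were also called higher and 130 lower. WT counts of the lists below are to be read against 9.78% and 26.6%. These 971 genes are 51.4% of those higher in WT. Of the 1210 genes that fell in cry1, 605 (50%) also fell in WT, which is 11.8% of the genes that fell there, and 41 rose in WT. The response was more positive in cry1 than in WT for 1492 genes (7.73%) and more negative for 512 (2.65%), by limma's test of the difference between both light responses. The median difference over all tested genes was 0.27 on the log2 scale, and it is the level against which single differences are to be read. TMM-type scaling moved it by -0.27, to -0.01, and then gave 1111 more positive and 1041 more negative genes, that is 51.6% more positive instead of 74.5%. Quantile normalization gave 58.7%. In the cry1 response alone the share of higher calls was 61.3% as deposited, 60.1% with TMM-type scaling and 54.6% with quantile normalization. No difference was called for 1426 (74.3%) of the genes that rose in cry1 and for 941 (77.8%) of those that fell. Over all tested genes, a difference was called for 7.73% (more positive) and 2.65% (more negative). A difference not called does not show that the responses were equal. The count of genes lower in cry1 was 758 without the third dark library and 680 without the third blue library. The count of more positive genes fell to 751 without the first and 854 without the second WT dark library, to 767 and 967 without the second and the third WT blue libraries, to 920 without the second cry1 dark library, and to 984 and 670 without the second and the third cry1 blue libraries. That of more negative genes was 243, 217 and 322 without WT dark library 1, 2 or 3, 224 and 256 without WT blue library 2 or 3, and 164 without cry1 blue library 3.

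**Figure D1:**
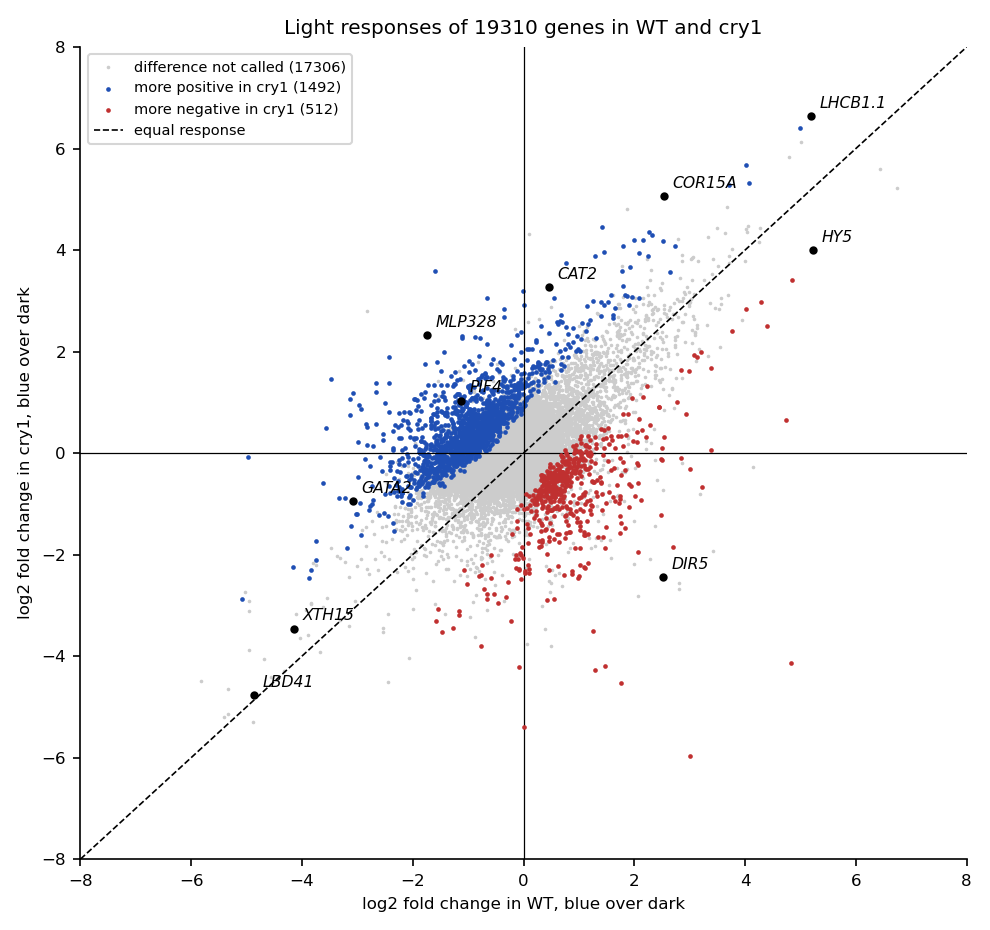
Log2 fold change from dark to blue light in WT (horizontal axis) and in cry1 (vertical axis) for each of the 19310 tested genes. Blue points are the 1492 genes whose response was more positive in cry1, red points the 512 with a more negative response, grey points the rest, and the dashed line marks an equal response. LHCB1.1 and HY5 lie at the upper right and LBD41 and XTH15 at the lower left, near the line compared with CAT2, PIF4 and MLP328 above it and DIR5 below it.

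Factors that promote photomorphogenesis responded in cry1 in either direction: 4 of 12 tested rose, 4 fell and 4 were not called, with a median log2 fold change of -0.45 against -0.06 over all genes. HY5, the bZIP factor at the centre of light signalling, was 3.09, 4.06 and 2.3 TPM in the dark libraries and 73.3, 58 and 63 TPM in the blue ones. All blue libraries stood far above all dark ones, and the log2 fold change was 4.0 ± 0.19 (adjusted p = 1.46e-08). In WT it was 4.02 ± 0.786 TPM in the dark and 186 ± 10.8 TPM in blue light (SD, n = 3), a log2 fold change of 5.23 ± 0.19. The rise in cry1 was the smaller, with a difference of -1.23 ± 0.27 (adjusted p = 0.0155) between cry1 and WT. HYH, its closest relative, was 13.1, 3.99 and 13 TPM in the dark libraries and 93.3, 55.8 and 63.1 TPM in the blue ones, with the second dark library lowest and no overlap. Its log2 fold change was 2.82 ± 0.33 (adjusted p = 3.6e-05) in cry1 and 2.63 ± 0.33 in WT. Of the factors that fell, FHL, which carries phytochrome A into the nucleus, was 22.7, 16.4 and 22.7 TPM in the dark libraries and 3.33, 2.65 and 2.72 TPM in the blue ones, a log2 fold change of -2.46 ± 0.25 (adjusted p = 1.2e-05). GATA2, a zinc-finger factor that promotes photomorphogenesis, was 14.5, 11.1 and 12.2 TPM in the dark libraries and 6.14, 5.92 and 5.91 TPM in the blue ones. It fell by less in cry1 (-0.95 ± 0.20) than in WT (-3.09 ± 0.20), a difference of 2.13 ± 0.28 (adjusted p = 0.00145).

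Genes that restrain light signalling mostly rose. Of 17 tested, 11 rose, none fell (1 without the second dark library) and 6 were not called, and the median log2 fold change was 2.36 in cry1 and 2.27 in WT. SPA1, the partner of COP1, was 4.3, 3.07 and 4.53 TPM in the dark libraries and 25.8, 47.7 and 43.2 TPM in the blue ones. BBX24, a B-box protein that opposes HY5, was 43.7, 27.8 and 29.4 TPM in the dark libraries and 234, 216 and 229 TPM in the blue ones. Neither gene's dark and blue values overlapped, and their log2 fold changes were 2.97 ± 0.26 (adjusted p = 2.96e-06) and 2.74 ± 0.19 (adjusted p = 3.93e-07). The B-box microprotein gene BBX31 was 0.13, 0.28 and 0 TPM in the dark libraries and 9.6, 7.77 and 7.86 TPM in the blue ones. BBX32, which binds and inhibits other B-box proteins, was 0, 0.01 and 0.17 TPM in the dark libraries and 13.1, 7.67 and 10.4 TPM in the blue ones. These were near 0 in every dark library and well above it in every blue library, with log2 fold changes of 3.05 ± 0.20 and 3.4 ± 0.23. Both passed the filter only through the blue libraries, as did other genes below, among them ELIP1, GA2OX1, HSP18.2, COR15A, IRT1, cPT4 and AT3G28270. AT1G33055, AT3G02790 and AT1G06553 passed only through the dark ones. For such genes the filter required all 3 values of the higher group to reach 1 TPM, so the separation of their groups is not a separate result. For BBX31 the responses of cry1 and WT did not differ by the test (0.18 ± 0.28 (adjusted p = 0.705)). The rise of BBX32 was smaller in cry1 than in WT (-1.45 ± 0.32 (adjusted p = 0.0148)), a difference that was not called with a pseudocount of 0.1 (adjusted p = 0.545).

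PIF and related growth-regulating bHLH genes split in cry1: 4 of 18 rose, 8 fell and 6 were not called, with a median of -0.34. PIF4, which promotes elongation, was 20.6, 16.8 and 19.7 TPM in the dark libraries and 38.2, 38.3 and 43.1 TPM in the blue ones, each blue value above each dark value. Its log2 fold change was 1.03 ± 0.27 in cry1, with an adjusted p of 0.016, and -1.12 ± 0.27 in WT, opposite in sign, with a difference of 2.16 ± 0.38 (adjusted p = 0.00579). Without the third cry1 blue library the cry1 value was 0.97 (adjusted p = 0.0632). PIF7, a factor of shade growth, was 3.93, 1.2 and 2.51 TPM in the dark libraries and 10.9, 10.6 and 10.3 TPM in the blue ones, a log2 fold change of 1.79 ± 0.27. PIL1, a rapidly light-repressed gene of the same family, was 107, 46.6 and 48.3 TPM in the dark libraries and 6.08, 7.75 and 7.64 TPM in the blue ones, a log2 fold change of -2.96 ± 0.31 (adjusted p = 1.52e-05), with the first dark library highest. IBH1, which inhibits cell elongation, was 134, 135 and 139 TPM in the dark libraries and 29.3, 26.9 and 24.6 TPM in the blue ones, and here the dark libraries were nearly equal. It fell by more in cry1 (-2.3 ± 0.16) than in WT (-1.08 ± 0.16), with a difference of -1.22 ± 0.22 (adjusted p = 0.00712). PRE6, an atypical bHLH that promotes elongation, was 40.4, 28.9 and 42 TPM in the dark libraries and 11.9, 7.42 and 9.19 TPM in the blue ones, a log2 fold change of -1.86 ± 0.23 against -3.2 ± 0.23 in WT. The list had 2 higher calls without the first or the third blue library, and 5 lower calls without the third dark or the third blue library or with the 6 cry1 libraries alone.

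**Figure D2:**
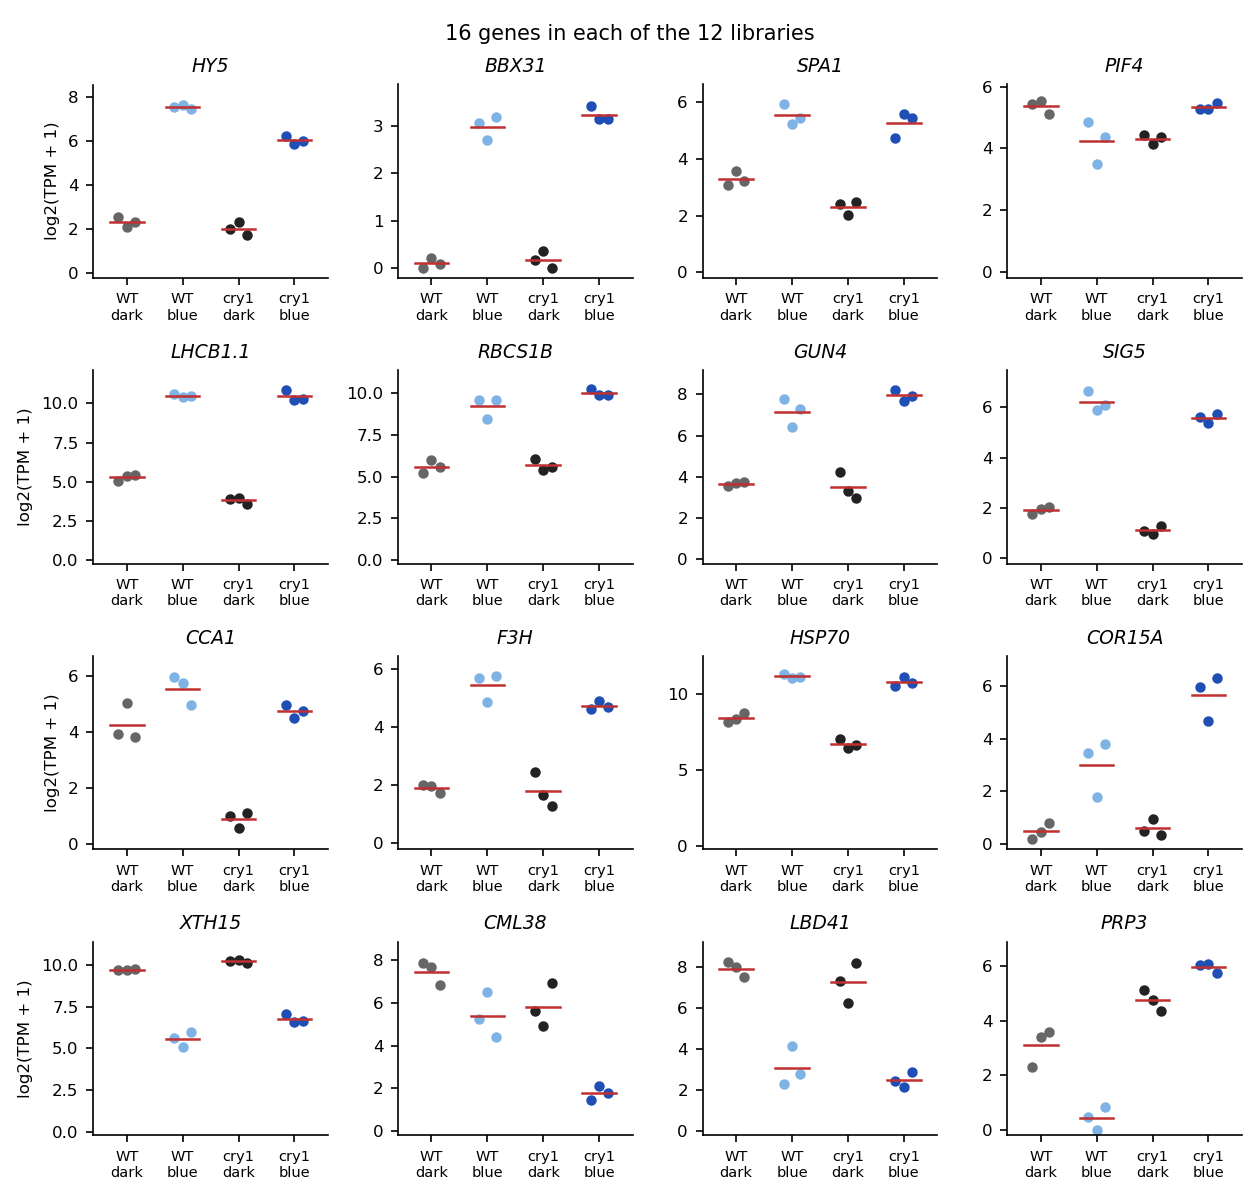
Level of 16 genes as log2(TPM + 1) in each of the 12 libraries, with 1 point per library and a red line at each group's mean. In cry1 the dark and blue points of every gene shown stand apart, as for HY5 with 2.3 to 4.06 TPM in the dark and 58 to 73.3 TPM in blue light, and PIF4 and PRP3 move in opposite directions in WT and cry1.

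Most genes of the greening programme rose in cry1. Of 20 genes for light-harvesting antenna proteins, which bind chlorophyll around the photosystems, 18 rose and 2 were not called, with a median log2 fold change of 2.18 in cry1 and 1.28 in WT, where 15 rose. LHCB1.1, the antenna gene with the smallest adjusted p, was 13.9, 14.8 and 10.9 TPM in the dark libraries and 1852, 1193 and 1234 TPM in the blue ones. Its 3 dark values were close together and all blue values far above them, with a log2 rise of 6.63 ± 0.19 (adjusted p = 1.52e-10). In WT, LHCB1.1 was 38.8 ± 5.74 TPM in the dark and 1446 ± 94.5 TPM in blue light (SD, n = 3). All cry1 dark values were below the WT dark mean, while the cry1 blue values lay on either side of the WT blue mean, and the difference of responses was 1.44 ± 0.27 (adjusted p = 0.0083) as deposited and 1.14 (adjusted p = 0.0555) with TMM-type scaling. LHCB2.1 was 24, 27.1 and 19.1 TPM in the dark libraries and 1427, 999.7 and 1319 TPM in the blue ones. LHCB3 was 53.9, 58.7 and 47.2 TPM in the dark libraries and 1373, 805 and 995 TPM in the blue ones. Neither gene's groups overlapped. Their log2 fold changes were 5.68 ± 0.22 and 4.26 ± 0.21. LHCA1, of the photosystem I antenna, was 65.5, 90.5 and 76.2 TPM in the dark libraries and 618, 535 and 607 TPM in the blue ones, a log2 fold change of 2.91 ± 0.19 against 1.46 ± 0.19 in WT, with a difference of 1.46 ± 0.27 (adjusted p = 0.00729). LHCB1.4 was 13.3, 44.3 and 31.1 TPM in the dark libraries and 189, 145 and 200.2 TPM in the blue ones, with the first dark library lowest. It rose in cry1 (2.69 ± 0.36) and was not called in WT (-0.35 ± 0.36 (adjusted p = 0.471)), with a difference of 3.04 ± 0.51 (adjusted p = 0.00499). LHCB1.5 was 197, 487 and 393 TPM in the dark libraries and 0, 3264 and 3652 TPM in the blue ones: it was listed at 0 in the first blue library alone, which left its value at -0.56 ± 2.14 (adjusted p = 0.895) with that library and at 3.36 (adjusted p = 0.000554) without it. Genes of the LHCB1 and LHCB2 families are nearly identical, so how reads were divided among them is uncertain. LHCB4.3, an antenna gene of low level, was 1.26, 1.06 and 1.55 TPM in the dark libraries and 3.17, 2.15 and 1.73 TPM in the blue ones and was not called. The response of 7 antenna genes was more positive in cry1 than in WT, and of 3 with TMM-type scaling.

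The 250 bases before the annotated start of LHCB1.1 are shown because this gene had the smallest adjusted p of the antenna list in cry1. The window (chr1:10475970-10476219, minus strand, RefSeq assembly TAIR10.1, no other gene inside) is printed from 5′ to 3′ on the gene's strand, and the capitals mark the CCA1-binding site, AAAAATCT, 78 bases before the start.
LHCB1.1: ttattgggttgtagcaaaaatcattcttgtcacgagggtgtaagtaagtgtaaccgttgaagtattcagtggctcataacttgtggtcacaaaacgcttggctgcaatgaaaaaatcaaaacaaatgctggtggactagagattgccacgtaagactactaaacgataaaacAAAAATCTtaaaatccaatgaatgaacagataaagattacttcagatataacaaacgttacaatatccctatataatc
That motif, searched on both strands, stood in the windows of 3 of 20 antenna genes (15%) and of 6.68% of the 19191 tested genes with such a window. The G-box, CACGTG, a sequence bound by HY5 and PIFs, was in the windows of 20% of antenna genes, 20.6% of photosystem genes and 7.15% of all, and among genes called in cry1 in 9.71% of those higher and 7.88% of those lower. The I-box, GATAAG, was in 4 of 20 antenna, 8 of 34 photosystem and 12.5% of all windows. A match describes the letters of the window and is neither a measured binding site nor a cause of the change.

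Nuclear genes of the photosystems and the electron transport chain rose with 1 exception: 33 of 34 were called higher and none lower, with a median log2 fold change of 1.59 in cry1 and 1.21 in WT, where 25 rose. PSBO2, a subunit of the oxygen-evolving complex, was 8.43, 9.16 and 8.64 TPM in the dark libraries and 121, 70.5 and 89.9 TPM in the blue ones, with nearly equal dark values. The log2 fold change came to 3.25 ± 0.23 (adjusted p = 5.71e-07). The exception was PETC, the Rieske protein of the cytochrome b6f complex, which was 137, 120.3 and 123 TPM in the dark libraries and 207, 149 and 188 TPM in the blue ones. Its blue values were above its dark values, and the log2 fold change of 0.5 ± 0.16 (adjusted p = 0.0531) missed the threshold, while without the second blue library it was 0.63 (adjusted p = 0.0278). Between cry1 and WT, 9 of the 34 responses were more positive in cry1 and 1 more negative, and 2 and 1 with TMM-type scaling.

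Carbon fixation genes followed: 14 of 19 rose and 5 were not called, with a median of 1.46. RBCS1B, a small subunit of Rubisco, was 66.4, 41.8 and 46.4 TPM in the dark libraries and 1253, 941 and 968 TPM in the blue ones, a log2 fold change of 4.34 ± 0.30 (adjusted p = 3.93e-07). RBCS1A was 407, 318 and 378 TPM in the dark libraries and 1743, 1336 and 1471 TPM in the blue ones, without overlap. In WT it was already 1100 ± 81.4 TPM in the dark and 1205 ± 307 TPM in blue light (SD, n = 3), and the difference of responses was 1.94 ± 0.28 (adjusted p = 0.00216). The RBCS genes are near-identical copies, and reads may be shared between them. PRK, phosphoribulokinase, was 22.2, 13.7 and 20.6 TPM in the dark libraries and 114, 103 and 123 TPM in the blue ones. RCA, Rubisco activase, was 159, 100.71 and 123 TPM in the dark libraries and 699, 668 and 726 TPM in the blue ones. Blue and dark values did not overlap for either, with log2 fold changes of 2.55 ± 0.25 and 2.47 ± 0.24. PRK was not called in WT (0.62 ± 0.25 (adjusted p = 0.0658)), and its response was more positive in cry1 (1.93 ± 0.35 (adjusted p = 0.00689)).

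Photorespiration, which recycles the product of Rubisco's reaction with oxygen, rose for 9 of 11 genes, with a median of 1.52 in cry1 and 0.76 in WT, where 5 rose (8 with TMM-type scaling and 7 with quantile normalization). GLDP1, the P protein of glycine decarboxylase, was 18.4, 10.9 and 13.2 TPM in the dark libraries and 142, 169 and 174 TPM in the blue ones. Its dark values were all low, and the log2 fold change was 3.45 ± 0.32 (adjusted p = 5.11e-06). GOX1, glycolate oxidase, was 68.2, 63 and 70 TPM in the dark libraries and 433, 271 and 348 TPM in the blue ones. HPR, the peroxisomal hydroxypyruvate reductase, was 11.2, 11.8 and 19.5 TPM in the dark libraries and 77.1, 79.5 and 87.9 TPM in the blue ones. No dark value reached a blue one for either gene, and their log2 fold changes of 2.34 ± 0.21 and 2.48 ± 0.25 were more positive than in WT by 1.55 ± 0.30 (adjusted p = 0.00953) and 1.72 ± 0.36 (adjusted p = 0.012). CAT2, the leaf catalase that removes photorespiratory hydrogen peroxide and a member of the list of reactive oxygen scavengers, was 55.7, 48.9 and 64.4 TPM in the dark libraries and 604, 460.3 and 596 TPM in the blue ones. It rose in cry1 by 3.27 ± 0.28 (adjusted p = 3e-06) and was not called in WT, where it was 257 ± 3.03 TPM in the dark and 387 ± 206 TPM in blue light (SD, n = 3), with a difference of 2.82 ± 0.40 (adjusted p = 0.00199). In that list of 11, CAT2 and APX1, the cytosolic ascorbate peroxidase, rose, 1 gene fell and 8 were not called. APX1 was 907, 799.8 and 1047 TPM in the dark libraries and 1961, 1536 and 1533 TPM in the blue ones, a log2 fold change of 0.87 ± 0.18 (adjusted p = 0.00394). No gene of that list was called lower without the first dark, the first blue or the third blue library, 2 were without the third dark library or with TMM-type scaling, and 3 with quantile normalization.

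Chlorophyll and tetrapyrrole synthesis genes were divided: 10 of 26 rose, none fell and 16 were not called, so the median was 0.10. Without the second dark library 1 was called lower. GUN4, which activates magnesium chelatase, was 17.78, 9.06 and 6.97 TPM in the dark libraries and 299, 204 and 244 TPM in the blue ones, with the first dark library highest of its group and no overlap. The rise was 4.43 ± 0.33 (adjusted p = 8.15e-07) on the log2 scale. HEMA1, the glutamyl-tRNA reductase at the entry of the pathway, was 27.6, 21.5 and 31.5 TPM in the dark libraries and 114, 139.5 and 158 TPM in the blue ones, a log2 fold change of 2.31 ± 0.23 (adjusted p = 9.2e-06). Of 12 photoprotection genes 9 rose and 3 were not called, with a median of 1.65 in cry1 and 1.76 in WT. NPQ4, the PsbS protein of energy dissipation, was 31.6, 26.6 and 19.9 TPM in the dark libraries and 287, 195 and 211 TPM in the blue ones. ELIP1, an early light-induced protein, was 0.65, 0.24 and 0 TPM in the dark libraries and 27.7, 27.8 and 19.2 TPM in the blue ones. Dark values of ELIP1 were at or near 0 and all blue values far above them, and the log2 fold changes were 3.11 ± 0.21 for NPQ4 and 4.33 ± 0.31 for ELIP1. ELIP2 rose by less in cry1 (1.67 ± 0.23 (adjusted p = 0.000162)) than in WT (3.38 ± 0.23), with a difference of -1.71 ± 0.33 (adjusted p = 0.00839) that a pseudocount of 0.1 took to an adjusted p of 0.544. In carotenoid synthesis 6 of 11 rose and 5 were not called. PSY, phytoene synthase, the first committed enzyme, was 28.3, 16.3 and 19.4 TPM in the dark libraries and 70.9, 72.5 and 76.6 TPM in the blue ones, a log2 fold change of 1.77 ± 0.20 (adjusted p = 3.26e-05).

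Of 11 plastid sigma and greening factors 8 rose and 3 were not called, with a median of 1.98 in cry1 and 1.16 in WT, where 6 rose. SIG5, a sigma factor of the plastid polymerase, was 1.15, 0.97 and 1.47 TPM in the dark libraries and 47.8, 40.1 and 51.6 TPM in the blue ones. Dark values lay near 1 TPM and the blue values far above, a log2 fold change of 4.43 ± 0.21 (adjusted p = 1.46e-08) against 4.28 ± 0.21 in WT. GLK2, which activates photosynthesis genes, was 18.9, 16.6 and 16.6 TPM in the dark libraries and 297, 226 and 283 TPM in the blue ones. GNC, a GATA factor of chloroplast development, was 10.2, 8.07 and 7.44 TPM in the dark libraries and 64.2, 93.8 and 102 TPM in the blue ones. Each gene was low in all dark and high in all blue libraries, with log2 fold changes of 3.87 ± 0.18 (adjusted p = 1.01e-08) and 3.18 ± 0.24 (adjusted p = 9.51e-07). For none of SIG5, GLK2 and GNC was a difference from WT called. Transcripts of the plastid genome itself were mostly not called: of 69 tested none rose, 3 fell and 66 were not called, with a median of -0.31. Without the second blue library 9 of them were lower, and 1 was higher without the third dark library. Their mean log2(TPM + 1) in the first blue library was 4.37, against 5.95 and 5.75 in the other blue and 5.50 to 5.71 in the dark libraries. The summed TPM of all 133 plastid genes was 16577.2, 16963.6 and 17156.6 in the dark libraries. In the blue libraries it was 15843.7, 21910.3 and 25967.9, above all dark values except in the first. Of 49 mitochondrial genes 2 rose and 1 fell, and 1 rose without each cry1 library in turn, and none fell without dark library 1 or 3 or blue library 1 or 3. Of 11 housekeeping genes none was called (1 was higher with quantile normalization), with mean levels of 7.77 to 8.02 in the 6 cry1 libraries.

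**Figure D3:**
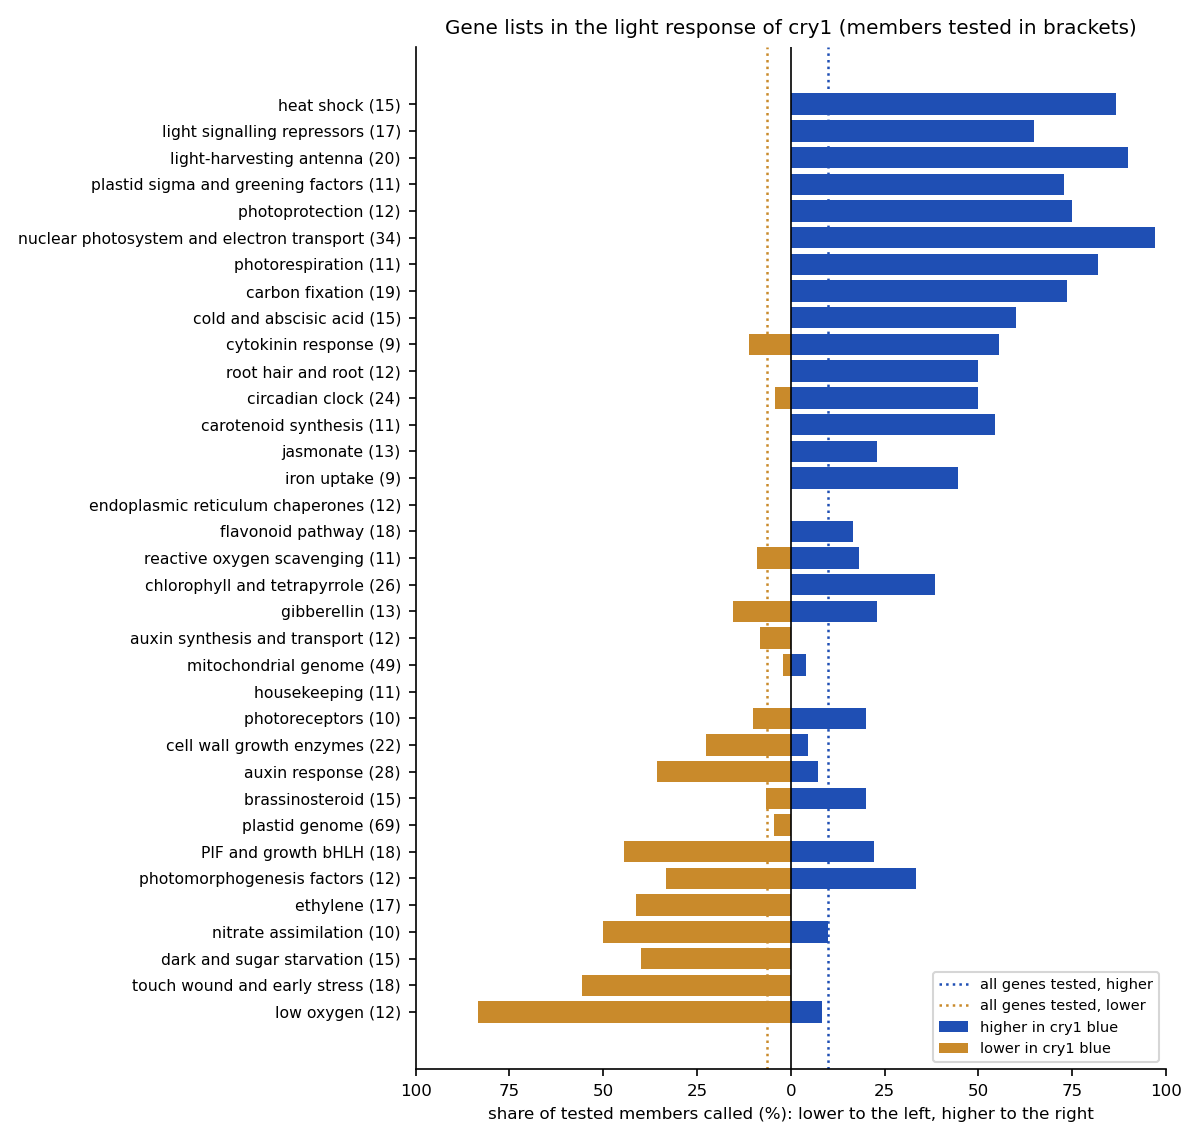
Share of each list's tested members called higher (blue bars, to the right) or lower (ochre bars, to the left) in cry1 blue light, in percent, with the number of members tested in brackets and lists ordered by their median log2 fold change. Dotted lines mark the shares over all tested genes, 9.93% higher and 6.27% lower. Greening lists and heat shock extend to the right, with 33 of 34 photosystem genes, and low oxygen genes to the left, with 10 of 12.

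Flavonoid genes, which make ultraviolet screens and anthocyanins, responded in part. Of 23 listed, 18 passed the filter, of which 3 rose and 15 were not called in cry1, and 11 rose and 1 fell in WT (none fell with TMM-type scaling or quantile normalization). The genes that rose were F3H, flavanone 3-hydroxylase, UGT78D2, a flavonoid glucosyltransferase, and MYB12, a flavonol regulator. F3H was 4.53, 2.17 and 1.44 TPM in the dark libraries and 23.7, 29 and 24.9 TPM in the blue ones. UGT78D2 was 8.58, 6.54 and 6.23 TPM in the dark libraries and 34.1, 46.4 and 42.8 TPM in the blue ones. Their blue values exceeded all dark values, and the log2 fold changes were 2.94 ± 0.29 (adjusted p = 9.83e-06) and 2.38 ± 0.21 (adjusted p = 3.05e-06), with no difference from WT called. TT4, chalcone synthase, was 18, 8.69 and 2.97 TPM in the dark libraries and 18.7, 27.7 and 16.5 TPM in the blue ones: the first dark library overlapped with the blue ones, and the log2 fold change of 1.25 ± 0.46 (adjusted p = 0.0826) was not called, but was 1.79 (adjusted p = 0.0121) without that library. Without it, or with TMM-type scaling or quantile normalization, 5 genes of the list were called higher. MYB90, an activator of anthocyanin genes, was 2, 1.27 and 1.62 TPM in the dark libraries and 0.58, 2.31 and 1.25 TPM in the blue ones, overlapping values. In WT it was 1.17 ± 0.499 TPM in the dark and 8.03 ± 2.74 TPM in blue light (SD, n = 3) and rose by 2.04 ± 0.29, and the difference of -2.24 ± 0.42 (adjusted p = 0.00775) was the only flavonoid difference called as deposited. With TMM-type scaling 4 were called, all more negative in cry1.

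Of 24 clock genes 12 rose, 1 fell and 11 were not called, with a median of 0.79 in cry1 and 0.23 in WT, where 9 rose and 5 fell. No clock gene was called lower without any cry1 library other than the second dark one. CCA1, the morning MYB factor of the central oscillator, was 1, 0.46 and 1.12 TPM in the dark libraries and 30.4, 21.9 and 26.1 TPM in the blue ones. Dark values were near 1 TPM and blue values all above 20 TPM, with a log2 rise of 3.87 ± 0.32 (adjusted p = 2.13e-06). In WT it was 19.7 ± 10.3 TPM in the dark and 47.8 ± 15.9 TPM in blue light (SD, n = 3), so its dark level was higher there, and the difference of responses was 2.59 ± 0.46 (adjusted p = 0.00602). RVE7, a related MYB factor, was 6.45, 4.39 and 7.02 TPM in the dark libraries and 55.5, 42.5 and 49.1 TPM in the blue ones, a log2 fold change of 2.86 ± 0.22 (adjusted p = 9.69e-07). LNK1, a coactivator of the same family of factors, was 6.14, 3.23 and 4.74 TPM in the dark libraries and 34.5, 51.5 and 51.9 TPM in the blue ones. ELF4, of the evening complex, was 19.4, 16.5 and 16.3 TPM in the dark libraries and 111, 88.7 and 87.8 TPM in the blue ones. Their groups did not overlap, with log2 fold changes of 3.05 ± 0.25 and 2.39 ± 0.20 and no called difference from WT.

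RVE7 had the smallest adjusted p of the clock list in cry1, and the 250 bases before its start (chr1:6308244-6308493, minus strand, TAIR10.1, no other gene inside) are given on the gene's strand with the evening element, AAATATCT, in capitals, 49 bases before the start.
RVE7: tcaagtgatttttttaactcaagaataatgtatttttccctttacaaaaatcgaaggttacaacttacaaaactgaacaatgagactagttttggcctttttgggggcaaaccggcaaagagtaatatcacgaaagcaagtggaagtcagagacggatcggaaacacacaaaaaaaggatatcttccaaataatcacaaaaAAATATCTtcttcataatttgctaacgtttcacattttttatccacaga
The evening element is bound by CCA1-related MYB factors. It was found on either strand in the windows of 7 of 24 clock genes (29.2%), against 4.87% of all tested genes, and the G-box in 9 of 24 (37.5%), against 7.15%. Among genes called higher in cry1 the evening element was in 5.95% and among those called lower in 5.72%.

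Of 28 auxin response genes 2 rose and 10 fell in cry1, and 1 rose and 18 fell in WT, and the difference was called more positive in cry1 for 13 of them as deposited and for 5 with TMM-type scaling. IAA29, an auxin signalling repressor that PIFs activate, was 27.4, 20.6 and 14.3 TPM in the dark libraries and 3.76, 3.15 and 5.03 TPM in the blue ones. Every blue value was below every dark value, a log2 fold change of -2.1 ± 0.24 against -3.75 ± 0.24 in WT and a difference of 1.65 ± 0.33 (adjusted p = 0.0109). GH3.5, which conjugates auxin, was 82.6, 63.7 and 134 TPM in the dark libraries and 24.9, 30.6 and 31.6 TPM in the blue ones, highest in the third dark library, a log2 fold change of -1.59 ± 0.28 (adjusted p = 0.00116). The genes that rose were SAUR14 and SAUR16, of a family of small growth-linked proteins. SAUR14 was 13.1, 12.4 and 10.2 TPM in the dark libraries and 128, 68.1 and 100.1 TPM in the blue ones. SAUR16 was 11.3, 16.8 and 12.7 TPM in the dark libraries and 44.6, 28.6 and 42.4 TPM in the blue ones. Neither overlapped between groups, with log2 fold changes of 2.91 ± 0.21 and 1.43 ± 0.21. SAUR16 was not called in WT (-0.38 ± 0.21 (adjusted p = 0.168)), and its difference was 1.81 ± 0.29 (adjusted p = 0.00422). Many SAUR genes are clustered and some are near-identical copies, so reads may be shared among such copies. In auxin synthesis and transport 1 of 12 fell and 11 were not called, while 2 fell without the second dark library, with TMM-type scaling or with quantile normalization, and none with the 6 cry1 libraries alone.

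Of 15 brassinosteroid genes 3 rose and 1 fell in cry1, and none rose and 9 fell in WT (1 rose with TMM-type scaling or quantile normalization). BES1, a transcription factor of brassinosteroid signalling, was 70.9, 52.4 and 58.4 TPM in the dark libraries and 159, 165 and 175 TPM in the blue ones, a log2 fold change of 1.45 ± 0.22 (adjusted p = 0.000316). CPD, a cytochrome P450 of brassinosteroid synthesis, was 155, 139 and 167 TPM in the dark libraries and 123, 102 and 112 TPM in the blue ones. Its blue values were all below its dark values, yet the log2 fold change of -0.45 ± 0.16 (adjusted p = 0.067) missed the threshold, and the fall in WT (-2.12 ± 0.16) was larger by the test (1.67 ± 0.22 (adjusted p = 0.00145)). The list had 1 higher call without dark library 2 or 3 or blue library 1 or 3 and with the 6 cry1 libraries alone. It had 3 lower calls without the second dark library or with TMM-type scaling, 4 with quantile normalization, and none without any other cry1 library, with the replicate block or with the 6 cry1 libraries alone. Of 18 gibberellin genes 13 passed the filter, of which 3 rose and 2 fell, and 1 was called lower without any library other than the second dark one. GA2OX1, which inactivates gibberellins, was 0, 0 and 0.05 TPM in the dark libraries and 5.89, 4.42 and 5.35 TPM in the blue ones, so that it was at or near 0 in the dark and near 5 TPM in blue light, with 2.61 ± 0.23 (adjusted p = 4.19e-06).

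Among 22 cell wall growth genes 1 rose and 5 fell in cry1, and none rose and 16 fell in WT (8 with TMM-type scaling). XTH15, a xyloglucan-modifying enzyme, was 1227, 1251 and 1132 TPM in the dark libraries and 133, 94.8 and 100.70 TPM in the blue ones. Dark values were nearly equal and the blue values far lower in all 3 libraries, a log2 fold change of -3.46 ± 0.20 (adjusted p = 9.2e-08) against -4.14 ± 0.20 in WT, with no called difference. EXPA8, an expansin, was 74.9, 81.8 and 74.6 TPM in the dark libraries and 66.1, 39.5 and 65.5 TPM in the blue ones. It was not called in cry1 (-0.47 ± 0.26 (adjusted p = 0.271)), while in WT it went from 114 ± 12.1 to 14.3 ± 5.88 TPM (SD, n = 3), and the difference of responses was 2.52 ± 0.37 (adjusted p = 0.00225). Without dark library 3, blue library 2 or blue library 3, 3 cell wall genes were called lower, and the higher calls were 2 without dark library 2 or blue library 1 and none without blue library 3.

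Of 12 cytokinin response genes 9 passed the filter, of which 5 rose and 1 fell. ARR4, a response regulator induced by cytokinin, was 27.7, 27.7 and 21.4 TPM in the dark libraries and 81.1, 53.3 and 50.9 TPM in the blue ones, a log2 fold change of 1.22 ± 0.23 (adjusted p = 0.00195). CKX5, an enzyme that degrades cytokinin, was 17.9, 12 and 16.5 TPM in the dark libraries and 2.46, 3.28 and 3.28 TPM in the blue ones, with every blue value far below the dark ones and a log2 fold change of -2.03 ± 0.21 (adjusted p = 1.19e-05). Without the first blue library 3 were called higher. Of 17 ethylene genes none rose and 7 fell in cry1, with a median of -0.58, and in WT 1 rose and 9 fell. ACS8, which makes the ethylene precursor, was 37.6, 30 and 55.8 TPM in the dark libraries and 2.34, 5.68 and 3.15 TPM in the blue ones, highest in the third dark library. The fall was -3.17 ± 0.32 (adjusted p = 1.16e-05) on the log2 scale. EBF2, an F-box protein that removes the ethylene factor EIN3, was 185, 155 and 208 TPM in the dark libraries and 95.6, 130.1 and 95.6 TPM in the blue ones, a log2 fold change of -0.77 ± 0.18 (adjusted p = 0.00795). Without the second dark library 11 ethylene genes were called lower, and 9 with TMM-type scaling. The count was 5 without dark library 1 or 3 or blue library 1 or 3, and with the replicate block.

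**Figure D4:**
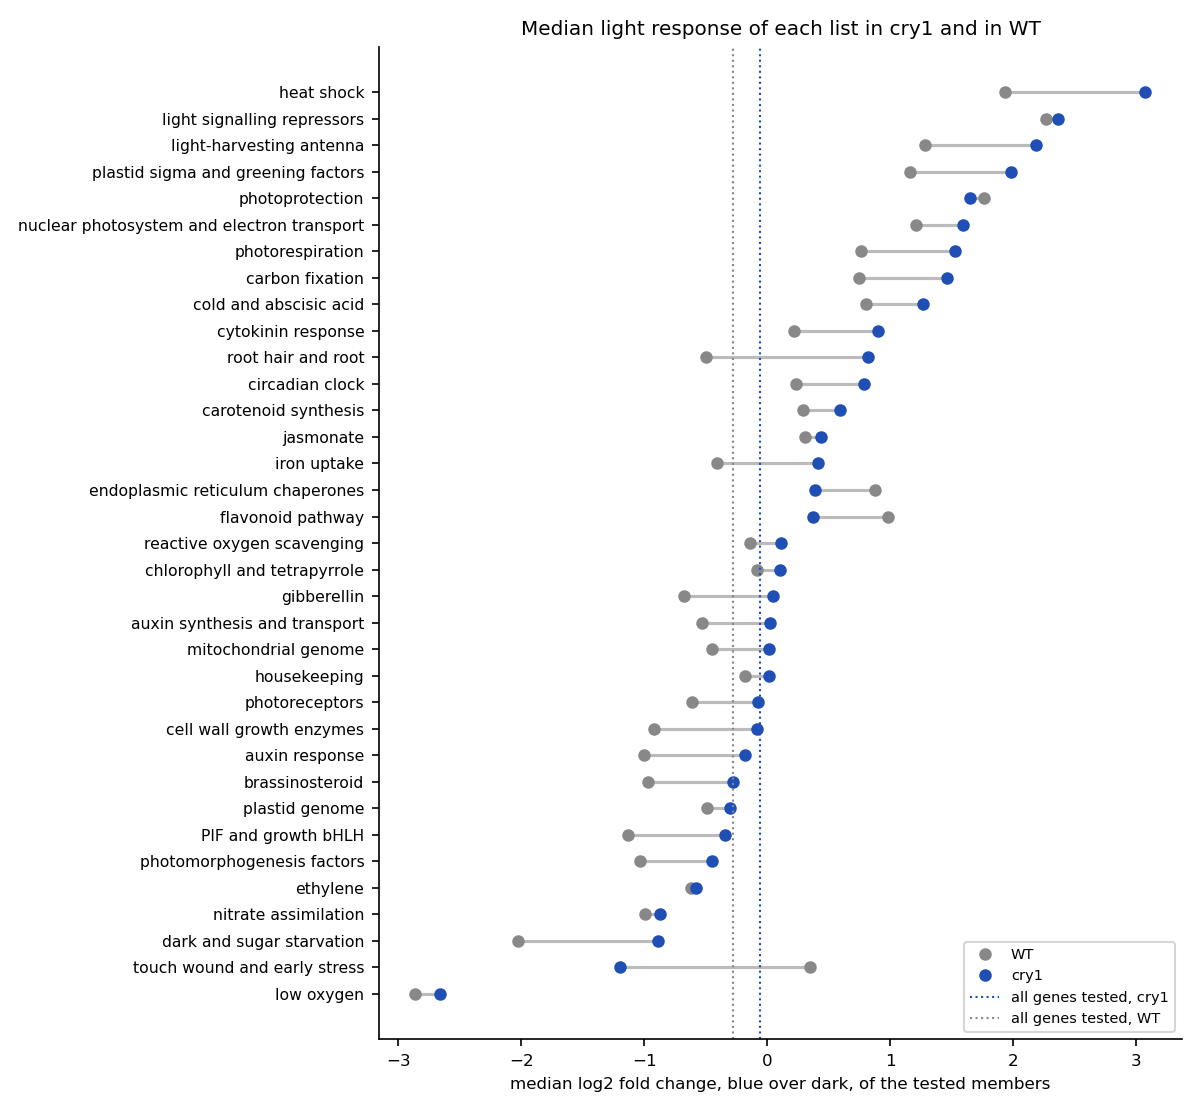
Median log2 fold change from dark to blue light of the tested members of each list, in cry1 (blue points) and in WT (grey points), with lines joining the pair and dotted lines at the medians of all genes, -0.06 in cry1 and -0.28 in WT. Heat shock (3.07 in cry1) is at the top and low oxygen (-2.66) at the bottom, and the touch, wound and early stress list stands at -1.2 in cry1 and 0.35 in WT.

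Heat shock genes had the highest median of the lists in cry1, 3.07, and a median of 1.93 in WT. Of 15 tested 13 rose and 2 were not called. HSP70, a cytosolic chaperone gene, was 127, 87.3 and 98.8 TPM in the dark libraries and 1433, 2225 and 1686 TPM in the blue ones, and HSP90.1, 23.3, 14.6 and 31.7 TPM in the dark and 298, 599 and 426 TPM in blue light. Both were far higher in each blue library than in any dark one, with log2 fold changes of 4.07 ± 0.21 (adjusted p = 3.22e-08) and 4.2 ± 0.28 (adjusted p = 2.58e-07). HSFA2, a heat shock transcription factor, was 3.15, 1.5 and 1.95 TPM in the dark libraries and 27.3, 64.2 and 42 TPM in the blue ones, a log2 fold change of 3.78 ± 0.37 (adjusted p = 7.59e-06). HSP17.6A, a small heat shock protein, was 2.34, 4.89 and 6.06 TPM in the dark libraries and 108, 86.8 and 68.7 TPM in the blue ones. In WT it was 280.3 ± 93 TPM in the dark and 1031 ± 486 TPM in blue light (SD, n = 3), above the cry1 levels in either condition. The mean log2(TPM + 1) of the list was 3.20 to 3.68 in cry1 dark, 5.92 to 6.34 in cry1 blue, 5.92 to 6.70 in WT dark and 7.69 to 8.66 in WT blue libraries, so the cry1 blue libraries overlapped with the WT dark ones. The rise was larger in cry1 for HSP70 (1.34 ± 0.30 (adjusted p = 0.0163)), HSP90.1 (2.05 ± 0.39 (adjusted p = 0.00846)) and HSP17.6A (2.27 ± 0.52 (adjusted p = 0.0167), and 1.96 with an adjusted p of 0.0646 by TMM-type scaling). HSP18.2 was 0.78, 0.65 and 0.81 TPM in the dark libraries and 2.31, 3.51 and 3.69 TPM in the blue ones, apart in every library, yet 1.24 ± 0.68 (adjusted p = 0.255) was not called in the fit to all 12 libraries and was called in that to the 6 cry1 libraries (adjusted p = 0.00476). Small heat shock protein genes are similar in sequence, so their division of reads is uncertain. The heat shock element core, GAANNTTC, was in the windows of 20% of these genes and 9.22% of all. HSP70 had the smallest adjusted p of this list in cry1. The 250 bases before its start, not printed here, held neither this core nor any other motif searched.

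Chaperones of the endoplasmic reticulum were not called in cry1: 0 of 12 rose or fell, and 9 rose in WT. The median was 0.39 in cry1 and 0.88 in WT. A difference, more negative in cry1, was called for 1 of the 12 as deposited. With TMM-type scaling it was called for 5 and with quantile normalization for 2. With TMM-type scaling 3 were higher in cry1, and 1 was with quantile normalization or without the first blue library. BIP2, an Hsp70 of that compartment, was 249, 153 and 263 TPM in the dark libraries and 270.0, 493 and 343 TPM in the blue ones: blue values were above dark ones, with 0.73 ± 0.28 (adjusted p = 0.0939) and an adjusted p of 0.0359 by TMM-type scaling. BIP3, its stress-inducible relative, was 0.81, 0.82 and 2.34 TPM in the dark libraries and 0.96, 2.64 and 2.03 TPM in the blue ones, overlapping values, and in WT was 2.52 ± 1.14 TPM in the dark and 21.5 ± 14.5 TPM in blue light (SD, n = 3).

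Of 18 cold and abscisic acid genes 15 passed the filter, of which 9 rose and 6 were not called, with a median of 1.27. COR15A, a chloroplast protein of freezing tolerance, was 0.41, 0.91 and 0.27 TPM in the dark libraries and 61.5, 24.5 and 78.8 TPM in the blue ones. The dark values were all under 1 TPM and the second blue library was the lowest of its group, a log2 fold change of 5.06 ± 0.48 in cry1 and 2.54 ± 0.48 in WT. KIN2, a small cold-induced protein, was 59.5, 125 and 36.2 TPM in the dark libraries and 614, 301 and 578 TPM in the blue ones. COR47, a dehydrin, was 124, 129 and 114 TPM in the dark libraries and 425, 325 and 473 TPM in the blue ones. For both the groups were apart, with log2 fold changes of 2.85 ± 0.36 and 1.71 ± 0.21. COR47 was not called in WT (0.26 ± 0.21 (adjusted p = 0.344)), and its difference was 1.45 ± 0.30 (adjusted p = 0.012). In jasmonate synthesis and response 3 of 13 rose and 10 were not called, of which 2 fell without the second dark and 1 without the second blue library. AOC2, allene oxide cyclase, was 5.98, 5.62 and 10.4 TPM in the dark libraries and 22.9, 20.8 and 22 TPM in the blue ones, a log2 fold change of 1.5 ± 0.21 (adjusted p = 0.000215).

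COR15A had the smallest adjusted p of the cold list in cry1. The 250 bases before its start (chr2:17712331-17712580, minus strand, TAIR10.1, no other gene inside) follow on the gene's strand, with capitals for the G-box, CACGTG, 28 bases before the start, the I-box, GATAAG, at 227, and the CRT/DRE core, CCGAC, the sequence bound by CBF cold factors, at 79 and, on the opposite strand, at 142.
COR15A: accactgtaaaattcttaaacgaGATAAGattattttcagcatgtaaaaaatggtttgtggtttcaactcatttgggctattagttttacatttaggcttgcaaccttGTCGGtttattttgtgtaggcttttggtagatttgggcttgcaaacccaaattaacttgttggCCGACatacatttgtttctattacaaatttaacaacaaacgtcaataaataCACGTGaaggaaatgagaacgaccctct
The CRT/DRE core was in 3 of 15 windows of the cold list (20%) and in 13% of all, and in 11.4% of genes called higher and 12% of those called lower. The CBF1, CBF2 and CBF3 genes themselves did not pass the filter in cry1.

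Low oxygen genes had the lowest median, -2.66 in cry1 and -2.86 in WT, and 10 of 12 fell in cry1, 1 rose and 1 was not called. LBD41, a transcription factor of the low oxygen response, was 158, 75 and 289.8 TPM in the dark libraries and 4.38, 3.46 and 6.3 TPM in the blue ones. PDC1, a pyruvate decarboxylase of fermentation, was 279, 133 and 586 TPM in the dark libraries and 12.2, 15.1 and 12.9 TPM in the blue ones. The third dark library was highest and the second lowest for both, yet all dark values were far above all blue values. Their log2 fold changes were -4.77 ± 0.47 (adjusted p = 9.01e-06) and -4.29 ± 0.46 (adjusted p = 1.79e-05), against -4.86 ± 0.47 and -4.32 ± 0.46 in WT. PCO2, a plant cysteine oxidase that senses oxygen, was 64.8, 43.7 and 91.6 TPM in the dark libraries and 1.6, 2.21 and 2.36 TPM in the blue ones. HRA1, which attenuates the response, was 73.7, 31.3 and 101.02 TPM in the dark libraries and 1.32, 1.91 and 2.21 TPM in the blue ones. Again the groups were widely apart, with -4.42 ± 0.35 (adjusted p = 1.32e-06) and -4.49 ± 0.34 (adjusted p = 1.03e-06). No difference between cry1 and WT was called for any of the 12, as deposited or with TMM-type scaling or quantile normalization. Leaving out any 1 cry1 library left 9 or 10 lower calls, 9 without the third dark library, and the higher call was kept only without that library.

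Of 18 touch, wound and early stress genes, 10 fell and none rose in cry1, and 2 fell and 3 rose in WT (1 and 5 with TMM-type scaling). CML38, a calmodulin-like protein, was 47.5, 29.1 and 121 TPM in the dark libraries and 1.73, 3.29 and 2.45 TPM in the blue ones. All dark values exceeded all blue values, with the third dark library well above the others, and the log2 fold change was -4.03 ± 0.52 (adjusted p = 8.69e-05). ZAT10, a zinc-finger repressor, was 31.1, 20.9 and 72.3 TPM in the dark libraries and 5.99, 9.46 and 4.73 TPM in the blue ones. WRKY40, a defence factor, was 31.1, 13.4 and 65.3 TPM in the dark libraries and 4.26, 8.23 and 4.15 TPM in the blue ones. Their blue values were low in all 3 libraries, and the log2 fold changes were -2.31 ± 0.39 (adjusted p = 0.000919) and -2.31 ± 0.48 (adjusted p = 0.00394), while in WT they were -0.08 ± 0.39 (adjusted p = 0.888) and 0.46 ± 0.48 (adjusted p = 0.463). The response was more negative in cry1 for 8 of the 18 genes as deposited, for 11 with TMM-type scaling and for 10 with quantile normalization. The mean log2(TPM + 1) of the list was 4.51, 3.99 and 5.47 in the dark and 3.20, 3.56 and 3.04 in blue light. Without the third dark, the first blue or the third blue library 6 were called lower.

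Dark and sugar starvation genes fell for 6 of 15 and rose for none in cry1, with a median of -0.89, against 11 falls and a median of -2.03 in WT. DIN10, a dark-inducible gene, was 139, 86.5 and 261 TPM in the dark libraries and 47.4, 60 and 60.2 TPM in the blue ones. TPS10, of the trehalose phosphate synthase family, was 45.6, 36.8 and 64.2 TPM in the dark libraries and 10.9, 14.3 and 16.1 TPM in the blue ones. Dark values exceeded blue values in every library, with the third dark library highest, and log2 fold changes were -1.38 ± 0.33 (adjusted p = 0.00989) and -1.73 ± 0.23 (adjusted p = 0.0001). Without the third dark or the first blue library 3 were called lower, and 1 was higher without the third dark library or with TMM-type scaling. Of 10 nitrate assimilation genes 5 fell and 1 rose. UPM1, a methyltransferase that makes siroheme for nitrite reductase, was 366, 255 and 347 TPM in the dark libraries and 71.5, 85.3 and 81.5 TPM in the blue ones. NIA1, a nitrate reductase, was 288, 198 and 432 TPM in the dark libraries and 66.9, 129.7 and 133 TPM in the blue ones. Neither overlapped, with -2.0 ± 0.19 (adjusted p = 7e-06) and -1.46 ± 0.30 (adjusted p = 0.00342), close to -2.03 ± 0.19 and -1.84 ± 0.30 in WT and with no called difference.

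**Figure D5:**
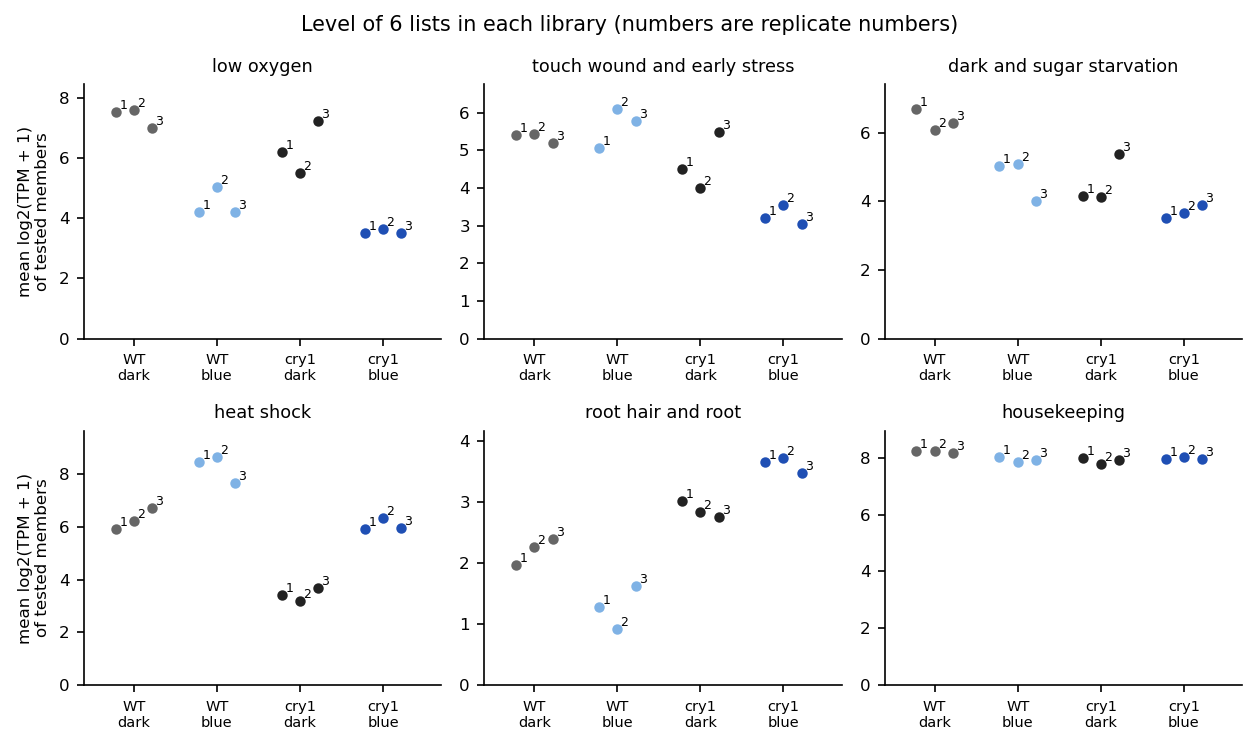
Mean log2(TPM + 1) of the tested members of 6 lists in each of the 12 libraries, with the replicate number beside each point. In cry1 the third dark library is the highest of its group for low oxygen (7.23) and for touch, wound and early stress (5.47), heat shock rises from 3.20 to 3.68 in the dark to 5.92 to 6.34 in blue light, and housekeeping stays at 7.77 to 8.02.

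Of 15 root genes listed, 12 passed the filter, of which 6 rose and none fell in cry1. In WT none rose and 4 of the 12 fell, beside 26.6% of all tested genes called lower there. In all, 2 genes were called in opposite directions in both genotypes. The difference was more positive in cry1 for 8 of the 12, and for 7 with TMM-type scaling. PRP3, a root hair cell wall protein, was 34.1, 25.9 and 19.1 TPM in the dark libraries and 64.4, 66.4 and 52.2 TPM in the blue ones, without overlap. In WT it was 8.14 ± 3.73 TPM in the dark and 0.377 ± 0.385 TPM in blue light (SD, n = 3). Its log2 fold change of 1.21 ± 0.33 (adjusted p = 0.0202) in cry1 was 1.00 (adjusted p = 0.0893) without the third dark library, 1.17 (adjusted p = 0.0627) without the first blue library and 1.14 (adjusted p = 0.0604) without the second, and had an adjusted p of 0.206 with a pseudocount of 0.1. The difference between genotypes, 3.88 ± 0.46 (adjusted p = 0.00105), was kept in each of these. RSL4, a root hair transcription factor, was 0.72, 1.26 and 0.69 TPM in the dark libraries and 4.36, 3.61 and 2.24 TPM in the blue ones, a log2 fold change of 1.2 ± 0.23 (adjusted p = 0.00232) and a difference of 1.53 ± 0.33 (adjusted p = 0.0129). GL2, which specifies hairless root epidermis and leaf hairs, was 4.53, 3.29 and 4.63 TPM in the dark libraries and 5.47, 3.8 and 4.78 TPM in the blue ones, overlapping values, and fell in WT (-1.96 ± 0.22), with a difference of 2.1 ± 0.32 (adjusted p = 0.00247). The number of root genes called higher was 1 without the third dark library, 3 without the first blue library and 1 with a pseudocount of 0.1. Of 15 iron uptake genes, many of them active in roots, 9 passed the filter, and of these 4 rose and none fell in cry1 and 4 fell in WT (2 with TMM-type scaling). IRT1, the root iron transporter, was 0.73, 0.23 and 0.1 TPM in the dark libraries and 2.41, 2.52 and 3.01 TPM in the blue ones, a log2 fold change of 1.45 ± 0.22 (adjusted p = 0.000351), and it was listed at 0 in all WT blue libraries. Without dark library 2 or 3 or blue library 1 or 3, 2 iron genes were called. These rises stand beside the higher summed level of root genes in cry1 blue light given above, whose part in them was not tested. SEP3, a floral factor and the only one of its list tested, was 17.3, 17.3 and 10.7 TPM in the dark libraries and 3.68, 4.02 and 4.83 TPM in the blue ones, a log2 fold change of -1.61 ± 0.24 (adjusted p = 0.00032).

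Outside the lists, the strongest rises with at least 5 TPM in blue light included cPT4, annotated as a cis-prenyltransferase. It was 0.68, 0.26 and 0.5 TPM in the dark libraries and 128, 121 and 120.2 TPM in the blue ones, near 0 in the dark and nearly equal across the blue libraries, with a log2 fold change of 6.4 ± 0.26 (adjusted p = 2.74e-09). AT3G28270 was 0.26, 0.11 and 0.46 TPM in the dark libraries and 90.5, 87.7 and 86 TPM in the blue ones. AT3G56290 was 2.85, 3.04 and 1.72 TPM in the dark libraries and 204, 136 and 168 TPM in the blue ones. AT3G21670, a member of the NRT1/PTR transporter family, was 0.54, 1.13 and 0.43 TPM in the dark libraries and 62.2, 102 and 130.2 TPM in the blue ones. Absence of overlap between groups was a condition for naming these genes, and the log2 fold changes were 6.13 ± 0.29, 5.59 ± 0.23 and 5.83 ± 0.33. CT-BMY, a chloroplast beta-amylase of starch breakdown, was 8.95, 5.32 and 3.19 TPM in the dark libraries and 179.7, 175 and 200.3 TPM in the blue ones, a log2 fold change of 4.86 ± 0.33 (adjusted p = 3.31e-07) against 3.67 ± 0.33 in WT. Among the strongest falls, AT1G33055 was 30.3, 28.1 and 56.4 TPM in the dark libraries and 0.2, 0 and 0 TPM in the blue ones, listed at 0 in 2 blue libraries, and AT2G17850 was 51.8, 45.2 and 189 TPM in the dark libraries and 1.23, 1.17 and 0.89 TPM in the blue ones. AT4G24110 was 100.3, 48.1 and 202 TPM in the dark libraries and 2.05, 5.84 and 3.15 TPM in the blue ones, a log2 fold change of -4.5 ± 0.44 (adjusted p = 8.63e-06). Each of these 3 was highest in the third dark library and fell in WT as well.

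Some genes parted between the genotypes beyond the lists. MLP328, a major latex protein-like gene, was 55.3, 59.6 and 33.2 TPM in the dark libraries and 319.7, 209.9 and 213 TPM in the blue ones, and in WT 72.3 ± 14.6 TPM in the dark and 22.6 ± 12.7 TPM in blue light (SD, n = 3). It rose in cry1 (2.32 ± 0.32) and fell in WT (-1.75 ± 0.32), with a difference of 4.06 ± 0.46 (adjusted p = 0.000824). AT4G15390 was 28.1, 23.4 and 22.6 TPM in the dark libraries and 75, 73.8 and 59.6 TPM in the blue ones and had a difference of 4.93 ± 0.43 (adjusted p = 0.000156). DIR5, a dirigent protein, went the other way: it was 25.6, 26.8 and 59.8 TPM in the dark libraries and 3.87, 10.3 and 4.07 TPM in the blue ones, and rose in WT from 9.98 ± 3.81 to 61.2 ± 16.7 TPM (SD, n = 3), a difference of -4.96 ± 0.54 (adjusted p = 0.000727). AT3G02790, also known as MBS1, and AT1G06553, a small nucleolar RNA, were listed at 24.6, 77.6 and 35.9 TPM and 29.5, 115 and 67.8 TPM in cry1 dark libraries and at 0 in all cry1 blue libraries. AT3G02790 was listed at 0 in all 6 WT libraries as well, and since a 0 in such files can be a failed estimate, neither a fold change nor a difference is given for them.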

How the data were processed

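RNA of whole seedlings was prepared with RNAiso Plus and a TruSeq RNA library kit (per the labels' protocols) and read on a HiSeq4000 (per the design text). The values the authors deposited are TPM, 1 table per library with 32833 genes, a unit recognised by the column sums of 980965 to 996431. Build TAIR10 and the tools DESeq 1.18.0, Cufflinks, Bowtie2, TopHat, HISAT2 2.2.1.0 and Trimmomatic 0.36 are listed without their roles, per the submitters' processing notes. No source used here gives the annotation release, the strand setting or how shared reads were divided. TPM is relative, so a large rise of some RNAs lowers all others, and it keeps no read depth.

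From the deposited TPM, log2(TPM + 1) was modelled with limma 3.58.1 (R 4.3.3), with group means over all 12 libraries, variances moderated along the mean level, and without a block. Genes needed at least 1 TPM in at least 3 of the 6 cry1 libraries, so a gene near 0 in 1 group could enter only through the other. The pseudocount of 1 understates changes of low genes. The contrasts were cry1 blue minus dark, WT blue minus dark and their difference. The code was tested on simulated data. Of 588 symbols written in 35 lists, 571 matched a gene of the RefSeq assembly TAIR10.1. The comparison, lists and members were chosen with earlier results of these data known, so lists are described by counts and medians, without a test. Genes named with values come from a rule: the 12 largest changes in each direction with at least 5 TPM in the higher group and no overlap, the 8 largest differences from WT in each direction, in each list up to 6 members with the smallest and 2 with the largest adjusted p and 2 with the smallest for the difference, and CRY1, CRY2, PHYA and HY5. From these, some with unstable or very low values were left out. Same-numbered dark and blue libraries of cry1 did not deviate together (r of -0.22, -0.28 and 0.07), so replicate numbers were not used as pairs. Between differently numbered libraries r was -0.12 to 0.32, highest for dark 2 with blue 1. It was 0.22 for dark 1 with blue 2, the libraries with the most seed storage RNA. What these libraries share was not tested. Alternatives were TMM-type scaling, quantile normalization, other filters, a pseudocount of 0.1, robust variance, a replicate block, the 6 cry1 libraries alone and each library left out.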

Additional observations from a re-analysis of the deposited data

Results flagged for a closer look

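Each result here was picked because the light response of cry1 differed from that of WT by the test of the difference itself. The response was more positive in cry1 for 1492 genes and more negative for 512. The values below are log2 differences, cry1 response minus WT response, to be read against the median of 0.27 over all tested genes.

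Among light signalling genes the difference was -1.23 for HY5, -1.45 for BBX32, 2.13 for GATA2, 2.16 for PIF4 and -1.22 for IBH1. In greening and photosynthesis it was 1.44 for LHCB1.1, 1.66 for LHCB2.1, 3.04 for LHCB1.4, 1.46 for LHCA1, 1.94 for RBCS1A, 1.93 for PRK, 1.72 for HPR, 1.55 for GOX1, 2.82 for CAT2 and -1.71 for ELIP2. In pigment and clock genes it was -2.24 for MYB90 and 2.59 for CCA1. Growth and hormone genes gave 1.81 for SAUR16, 1.65 for IAA29, 1.67 for CPD and 2.52 for EXPA8. Stress genes gave 1.34 for HSP70, 2.05 for HSP90.1, 2.27 for HSP17.6A and 1.45 for COR47. Root genes gave 3.88 for PRP3, 1.53 for RSL4 and 2.1 for GL2. Outside the lists the differences were 4.06 for MLP328, 4.93 for AT4G15390 and -4.96 for DIR5. All 31 were called without each of the 12 libraries in turn. LHCB1.1 and HSP17.6A were not called with TMM-type scaling, nor BBX32 and ELIP2 with a pseudocount of 0.1.

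A further 11 differences were called with all libraries and missed the threshold without at least 1 of them. PHOT1 (1.42) did so without any library but the third WT dark, the first WT blue, the first cry1 dark and the first cry1 blue (adjusted p up to 0.0841). FHL (1.41) did so without WT dark 1 or 2, WT blue 3, cry1 dark 2 or cry1 blue 3 (up to 0.0734). BBX30 (-1.31) was kept only without the first WT blue or the first cry1 blue library (adjusted p up to 0.0946 without the others). PRE6 (1.33) was lost without WT dark 1 or 2, WT blue 2 or cry1 blue 3 (up to 0.058). RVE7 (1.21) was lost without WT dark 1 or 3, WT blue 2 or 3, cry1 dark 2 or cry1 blue 3 (up to 0.0718). SAUR14 (1.00) was kept only without the first WT blue, the first cry1 dark or the second cry1 blue library (up to 0.11 without the others). BIP3 (-2.22) was lost without WT dark 1 or 2, cry1 dark 3 or cry1 blue 1 or 3 (up to 0.0689). COR15A (2.52) was kept only without WT blue 1 or 3, cry1 dark 2 or cry1 blue 2 (up to 0.0878 without the others). ZAT10 (-2.23) was lost without WT dark 1 or 3, WT blue 2 or cry1 blue 3 (up to 0.0677), WRKY40 (-2.78) without WT dark 3, WT blue 2 or 3 or cry1 blue 3 (up to 0.0637), and cPT4 (1.41) without WT dark 2, WT blue 2 or cry1 dark 2 or cry1 blue 2 or 3 (up to 0.0682). With TMM-type scaling FHL (1.1, adjusted p = 0.0543), BBX30 (-1.33, adjusted p = 0.0651) and SAUR14 (0.71, adjusted p = 0.187) were not called, and with quantile normalization the same 3 missed the threshold. With a pseudocount of 0.1 BBX30 (adjusted p = 0.501), BIP3 (adjusted p = 0.0591) and COR15A (adjusted p = 0.101) were not called, nor, with the replicate block, PHOT1, BBX30, SAUR14 and cPT4.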

How the results depend on the processing

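Without any 1 library, genes higher in cry1 numbered 1454 to 2007 and genes lower 680 to 1785, more positive differences 670 to 2156 and more negative ones 164 to 730, and in WT 1342 to 1795 genes were higher and 3054 to 5391 lower. With quantile normalization 2010 genes were lower in cry1, 924 were more negative and 3059 higher in WT. With TMM-type scaling 1041 were more negative, and in WT 3552 were higher and 3278 lower. Without a filter beyond a value above 0, 305 were more negative. The cause of these shifts was not tested. With the replicate block, although same-numbered libraries did not deviate together, 1757 were higher and 959 lower in cry1, 1039 more positive and 290 more negative. The genes higher in cry1 stayed within 1.5 times the reported 1918 under every alternative run, and 1852 of them (96.6%) were also called with TMM-type scaling. Of 105 genes named with a test in cry1, 92 were called. Of these, 90 kept the call under every alternative run that tested them, the exceptions being PIF4 and PRP3. Low genes such as IRT1 were not tested under the filter of at least 5 TPM in 3 or more cry1 libraries. Genes and differences were mostly named for a small adjusted p or a large change, and some unstable ones were left out. Such shares therefore do not stand for all calls. Over all genes, 55.5% of the lower calls were kept without the third cry1 blue library. Of the higher calls, 73.8% were kept without the third cry1 dark library. Without 1 library LHCB1.5 ranged from -2.56 to 3.36 and MYB90 from -0.471 to 0.0626, each positive only without the first cry1 blue library. Of 42 named differences between the genotypes, none of which rests on a group listed at 0, 31 kept the call without each of the 12 libraries in turn, and 37 of the 42 were called with TMM-type scaling and 39 with quantile normalization. Depth is unknown, so what it limits could not be given.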
